A study of Mus musculus with 52 samples.

Results

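The rodent Sfmbt2 miRNA cluster was followed through small RNA sequencing of the mouse hippocampus. Its members were taken as every row of the miRNA count tables named for miR-297, miR-466, miR-467 or miR-669, with any letter, copy number or arm. The rule found 80 members among 1900 miRNA rows. They comprised 6 miR-297, 31 miR-466, 13 miR-467 and 30 miR-669 rows. The libraries came from 2 microdissected parts of the hippocampus, DG (the dentate gyrus) and CA (the cornu ammonis), of C57B/6JRj mice listed as 20 weeks old. The mice had lived in environmental enrichment (EE) or in a home cage (HC), for 2 or 10 weeks. The 52 libraries formed 8 groups: 5 of 2wEE_DG, 6 of 2wHC_DG, 8 of 10wEE_DG, 6 of 10wHC_DG, 7 of 2wEE_CA, 6 of 2wHC_CA, 8 of 10wEE_CA and 6 of 10wHC_CA. The labels do not say whether the libraries of a group came from separate animals, and the p-values therefore reflect only how these libraries vary, which may be technical variation.

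A miRNA is cut from one or both arms of an RNA hairpin, named 5p and 3p, and pairs with target mRNAs mainly through its seed, bases 2 to 8. Sfmbt2 encodes a Polycomb group protein and is imprinted in the mouse, where the paternal copy is expressed in early embryos and extraembryonic tissue. An intron of the gene holds a large array of repeated miRNA hairpins that is found in rodents, and in the mouse this array is needed for a normal placenta. Because many copies are near-identical, a read from one can align to several places in the genome. HTSeq, the counter named in the submitters' processing notes, by default gives such a read to no miRNA.

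Mature sequences in RefSeq (GRCm38.p6) matched 8 of the 80 members, all with hairpins outside Sfmbt2. Of these, 4 are shown because they carry a repeat found in most of the 8, with the seed in capitals and each read 5′ to 3′. The first was the one member among the 8 with any counts, and the other three had 0 counts in every library.
miR-466q: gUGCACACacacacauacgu
miR-467f: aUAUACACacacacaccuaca
miR-466i-3p: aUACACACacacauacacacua
miR-669n: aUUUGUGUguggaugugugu
Alternating C and A ran for 12 bases in miR-466q, 12 in miR-467f and 11 in miR-466i-3p, and alternating U and G ran for 8 bases in miR-669n. Among the 8 members, 6 held such a run of at least 8 bases. Of 1679 mature miRNAs in the same RefSeq table, these 8 included, 13 (0.774%) held one, and the median longest run was 3 bases. The 8 members had 8 distinct seeds. The mature sequence of miR-466q lies at chr3:28419988-28420007 on the plus strand (GRCm38.p6).

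Most of the families gave no reads that could be counted. Of the 80 members, 59 (73.8%) had 0 counts in all 52 libraries, against 403 of the 1820 other miRNAs (22.1%). A count of 0 over the series allows a level of up to 0.0186 CPM (counts per 1000000 counts of all miRNA rows, at 3 counts of 161085533), and this limit covers counting error only. Members were called detected where at least 3 counts stood in at least 26 of the 52 libraries. That held for 7 members (8.75%), against 676 other miRNAs (37.1%). Together the members had 7739 counts, or 48.0 CPM over the whole series.

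The counts sat in very few members. miR-467d-5p held 2630 counts (34.0% of all member counts) and ranked 378 among 1900 miRNAs by mean CPM. miR-669c-5p held 2462 counts (31.8%) and ranked 383. Both had at least 3 counts in every library. miR-467e-5p followed with 1170 counts and miR-467c-5p with 564, and these 4 members made up 88.2% of the total. The other three detected members were miR-466q with 261 counts, miR-669o-5p with 260 and miR-669h-5p with 149, the last with 3 or more counts in exactly 26 libraries. miR-669l-5p had 116 counts and reached 3 counts in 18 libraries, miR-669e-5p had 40 counts and miR-466n-3p had 26. A further 11 members had between 1 and 24 counts over all libraries, led by miR-669e-3p with 24.

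The families and arms differed in what was counted. miR-467 members gave 4366 counts, miR-669 members 3064, miR-466 members 303 and miR-297 members 6. Of the miR-466 counts, 261 came from miR-466q, and all 13 miR-466 rows named 5p were at 0. The 33 rows named 5p held 7398 counts (95.6%), the 35 named 3p held 73, and 12 rows with no arm in their name held 268. Of 33 hairpin names with both arms listed, the 5p arm had more counts in 10, the 3p arm in 6, and both were at 0 in 17. miR-467d, miR-669c, miR-467e and miR-467c each had 0 counts on the 3p arm. Whether reads of one arm were lost more often by aligning to several places was not tested.

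In the GENCODE M21 annotation (GRCm38), Sfmbt2 lies at chr2:10370510-10595253 on the plus strand. Of 81 annotated hairpins that carry the family names, 71 lie inside it, all on its strand and none overlapping an exon. They span 51.6 kb (chr2:10466663-10518279) within a single intron of 62.5 kb (chr2:10461473-10523944). Members placed only there numbered 64 and held 7477 counts (96.6%). Of the 9 members placed only elsewhere, 8 were at 0, and the exception was miR-466q, whose hairpin at chr3:28419943-28420018 lies in an intron of Tnik. The intron also holds 48 other annotated miRNA genes. All 48 have names starting with Gm, so rows of the count tables could not be matched to them by name. Their sequences were not compared with those of the rows.

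Nearly all counts came from names that belong to a single hairpin. The 60 members with 1 annotated hairpin held 7738 of the 7739 counts, although 40 of them were also at 0. The 18 members with several hairpins, from 2 to 12 each, held 1 count between them, from miR-466f-3p, and 17 were at 0. The remaining 2, miR-466a-3p and miR-466a-5p, matched no hairpin by name and were at 0. Among the other miRNAs, those with several hairpins of their name were at 0 in 21 of 51 cases (41.2%), with a median of 2 counts over the series. Those with 1 hairpin were at 0 in 375 of 1735 cases (21.6%), with a median of 30 counts. Those that matched no hairpin by name were at 0 in 7 of 34 cases (20.6%), with a median of 105 counts. Copies were counted by name, and identical sequences under different names were not examined here.

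Along the intron the counts came from both ends, most of them from the 3′ end. Mir669e (chr2:10467495-10467613), Mir669l (chr2:10468971-10469068) and Mir467c (chr2:10473931-10474027) lie near the 5′ end of the array. Mir467e (chr2:10505721-10505807), Mir467d (chr2:10507630-10507714), Mir669c (chr2:10509296-10509404), Mir466n (chr2:10513741-10513834), Mir669o (chr2:10514300-10514395) and Mir669h (chr2:10518155-10518279) lie near its 3′ end. The 3 hairpins of miR-467e, miR-467d and miR-669c are neighbours in this list and gave 3 of the 4 highest totals. Between Mir467b and Mir467e, a stretch of 24.4 kb (chr2:10481321-10505720) held 26 hairpins of 10 members. Each of these members has between 2 and 12 hairpins, and all 10 had 0 counts. Members with several hairpins held 1 count in total, here or elsewhere. In this stretch, little RNA therefore cannot be told apart from reads lost by aligning to several places.

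**Figure D1:**
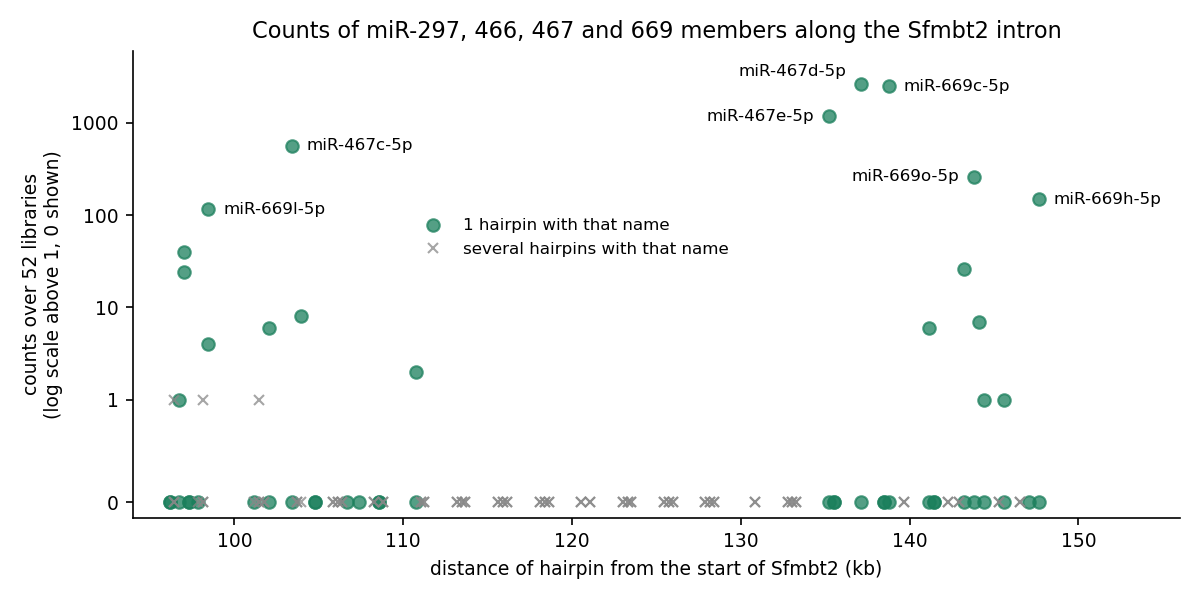
Counts over 52 libraries (vertical axis, logarithmic above 1 with 0 shown) for each member placed inside Sfmbt2, drawn at each of its hairpins against distance from the start of the gene in kb. Filled circles have 1 hairpin of that name and crosses have several; only crosses at 0 stand between 110.8 and 135.2 kb.

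Depth limits every value that follows. DG libraries held 1117213 to 3159957 miRNA counts (median 2093319) and CA libraries 480792 to 6706855 (median 4189269), so that 3 counts correspond to between 0.447 and 6.24 CPM. Each count table has a row for reads aligned to several places. It held 65.0 ± 2.18% of the sum of all rows in DG and 61.9 ± 2.13% in CA (SD, n = 25 and 27). This share of entries may differ from the share of reads, and whether it moved the members' levels was not tested. The median library held 137 member counts in DG and 169 in CA. Library 3 of 10wEE_CA stood apart: it was the shallowest, with 480792 counts, and its 43 member counts gave 89.4 CPM, against 33.8 to 43.8 CPM in the other 7 libraries of its group. The tissue check used marker miRNAs: the neuron list (6 of 6 rows present) summed to 20152 to 33010 CPM in DG and 16660 to 32128 CPM in CA (at most 25145 CPM without that library). Most of that sum was miR-128-3p, while miR-124-3p, the defining miRNA of neurons, had 57 counts over all libraries. miR-124-3p matched no hairpin by name, and whether its reads were lost by aligning to several places was not tested. Of other neuron markers, miR-9-5p (3 hairpins of its name) had 1746 counts, miR-128-3p (2 hairpins) 2853444 and miR-153-3p (1 hairpin) 719165.

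The summed level of the 80 members was higher in DG than in CA. DG libraries had 64.6 ± 9.84 CPM (SD, n = 25) and CA libraries 42.3 ± 10.7 CPM (SD, n = 27), or 40.5 ± 5.09 CPM without library 3 of 10wEE_CA. In bulk tissue, fewer cells of a type and less RNA per cell cannot be told apart. Every DG library lay above the CA mean. With library 3 of 10wEE_CA left out, 24 of 25 DG libraries lay above all 26 CA libraries. The exception was library 5 of 2wEE_DG, at 43.9 CPM.

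miR-467d-5p had a lowest, median and highest level of 15.2, 24.0 and 34.2 CPM in DG, against 6.24, 13.3 and 19.4 CPM in CA. In 19 of 25 DG libraries it was above the highest CA library, although the regions overlapped. miR-669c-5p had 14.1, 20.2 and 27.5 CPM in DG, against 8.53, 12.6 and 35.4 CPM in CA. Its highest CA value was library 3 of 10wEE_CA, with 17 counts. Without that library, the highest CA level was 17.4 CPM and 21 of 25 DG libraries lay above it.

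miR-467e-5p had 1.79, 8.96 and 13.3 CPM in DG, against 4.20, 6.23 and 22.9 CPM in CA. Its regions overlapped widely: 8 of 25 DG libraries lay above every CA library once library 3 of 10wEE_CA (11 counts) was left out, and 2 lay below every CA library. miR-467c-5p had 0.895, 4.70 and 9.67 CPM in DG, against 1.59, 2.68 and 6.24 CPM in CA. miR-466q, the member encoded outside the cluster, had 0, 2.31 and 4.50 CPM in DG, against 0.223, 1.19 and 4.57 CPM in CA, and no DG library exceeded the highest CA library. At a median of 5 counts per library for miR-466q and 11 for miR-467c-5p, single libraries of these members carry wide counting error.

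**Figure D2:**
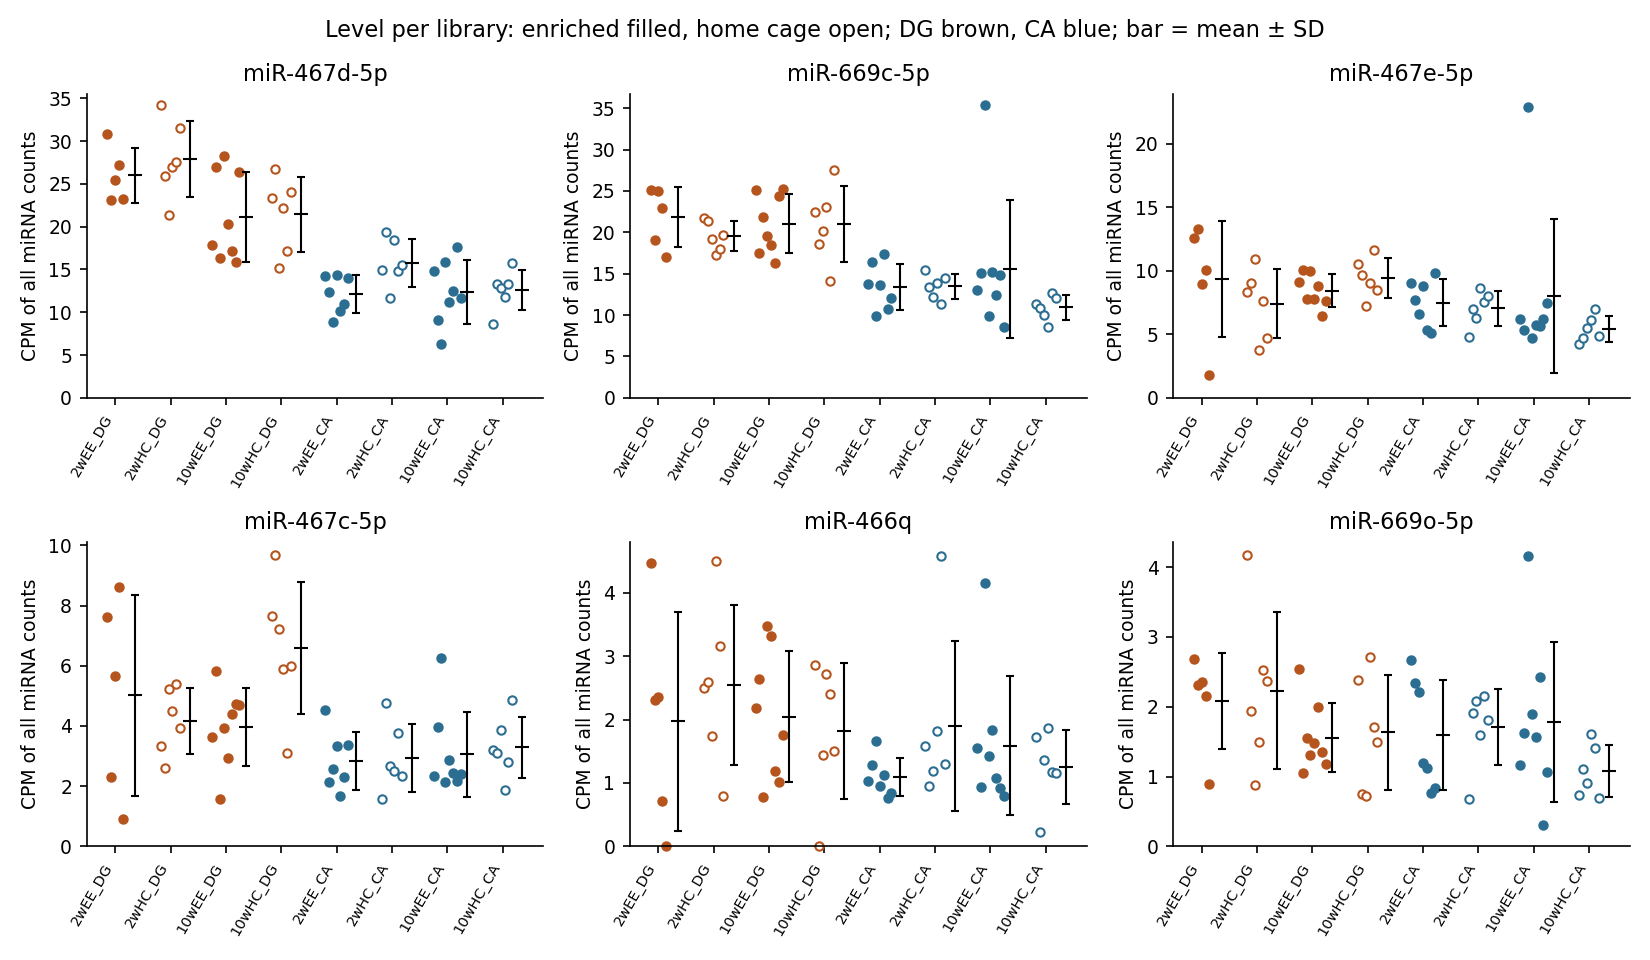
CPM of all miRNA counts in each library (points) by group for the 6 members with the highest mean level, with the group mean ± SD as a bar beside them; DG groups are brown and CA groups blue, enriched filled and home cage open. Points of miR-467d-5p and miR-669c-5p stand higher in DG, apart from library 3 of 10wEE_CA at 35.4 CPM for miR-669c-5p.

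All 5 members that passed the filter on low counts were called higher in DG (edgeR quasi-likelihood test over all 8 groups, Benjamini-Hochberg adjusted p under 0.05). The filter kept 593 miRNAs, of which 461 (77.7%) were called in either direction, 214 (36.1%) as higher and 247 (41.7%) as lower. The log2 fold change of DG over CA was 0.81 ± 0.08 (SE) for miR-467d-5p (adjusted p = 3.01e-12) and 0.67 ± 0.08 for miR-669c-5p (adjusted p = 2.66e-10). It was 0.69 ± 0.15 for miR-467c-5p (adjusted p = 4.36e-05), 0.66 ± 0.21 for miR-466q (adjusted p = 0.00446) and 0.40 ± 0.11 for miR-467e-5p (adjusted p = 0.00118). Without library 3 of 10wEE_CA the value for miR-467e-5p was 0.46 ± 0.10.

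These fold changes stood in the upper part of the range of all tested miRNAs without lying at its end. The median log2 fold change over the 593 was -0.04, and that of the 5 members 0.67. By percentile among the tested miRNAs, miR-467d-5p stood at 88.6, miR-467c-5p at 85.1, miR-669c-5p at 84.1, miR-466q at 82.7 and miR-467e-5p at 73.1. The 5 passed the filter by their level, so their median does not describe the other 75 members. miR-466q passed only in the fit of all 52 libraries, not in those of CA or DG libraries alone. Libraries with high values let it pass, most of them DG, as at 4.50 CPM in library 4 of 2wHC_DG. Its call as higher in DG is therefore tied in part to the filter. No member had every DG library above every CA library, which held for 40 of 683 detected miRNAs (5.86%), or 49 (7.17%) without library 3 of 10wEE_CA.

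**Figure D3:**
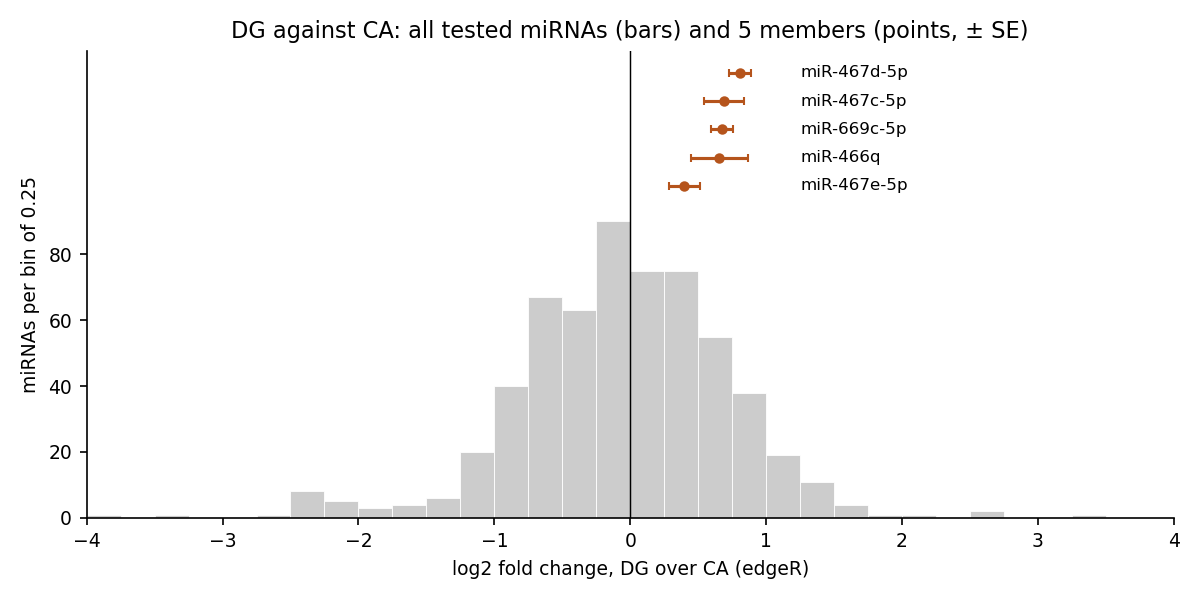
Number of tested miRNAs (bars, bins of 0.25) by log2 fold change of DG over CA, with the 5 tested members above as points ± SE. The members lie between 0.40 and 0.81, to the right of the median of -0.04.

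The difference between regions was examined within each housing and time for the same members. Of the 593 miRNAs tested, 26.6% were called higher in DG in 2wEE, 28.3% in 2wHC, 25.1% in 10wEE (31.1% without library 3 of 10wEE_CA) and 21.9% in 10wHC. Of the 5 members, 3 were called higher in 2wEE, 2 in 2wHC, 2 in 10wEE and 4 in 10wHC. miR-467d-5p was called higher in DG in all 4 (log2 fold change 1.08 ± 0.18 in 2wEE, 0.86 ± 0.17 in 2wHC, 0.61 ± 0.15 in 10wEE and 0.68 ± 0.18 in 10wHC). Its DG and CA libraries did not overlap at 2 weeks, in either housing, and every DG library was above every CA library there for 17.4% of 683 detected miRNAs in 2wEE and 15.7% in 2wHC. miR-669c-5p was also called in all 4, with values of 0.69 ± 0.17 in 2wEE, 0.57 ± 0.17 in 2wHC, 0.58 ± 0.14 in 10wEE and 0.85 ± 0.17 in 10wHC. In 2wHC and 10wHC all 6 DG libraries of miR-669c-5p lay above all 6 CA libraries, and the same held for 17.3% of detected miRNAs in 10wHC. miR-467c-5p was called in 2wEE (0.84 ± 0.31, adjusted p = 0.0195) and 10wHC (0.83 ± 0.28, adjusted p = 0.0117). miR-467e-5p was called in 10wHC (0.75 ± 0.23, adjusted p = 0.00473), and also in 10wEE once library 3 of 10wEE_CA was left out (0.49 ± 0.18, adjusted p = 0.0154, against 0.33 ± 0.20, adjusted p = 0.15, with it). For miR-466q the 4 adjusted p ranged between 0.0696 and 0.276.

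The members with fewer counts were not tested by that fit. miR-669o-5p averaged 1.84 ± 0.801 CPM in DG and 1.56 ± 0.808 CPM in CA (SD), with 1 to 14 counts in a library. miR-669h-5p averaged 1.07 ± 0.938 CPM in DG and 0.800 ± 0.483 CPM in CA, and was at 0 in 4 DG and 3 CA libraries. miR-669l-5p averaged 0.906 ± 0.829 CPM in DG and 0.689 ± 0.520 CPM in CA. miR-466n-3p averaged 0.0983 ± 0.209 CPM in DG and 0.317 ± 0.798 CPM in CA, or 0.169 ± 0.222 CPM in CA without library 3 of 10wEE_CA. miR-669e-5p averaged 0.116 ± 0.254 CPM in DG and 0.290 ± 0.243 CPM in CA, and had a count in 5 of 25 DG libraries and 19 of 27 CA libraries. With no filter on low counts, 314 of 1438 miRNAs (21.8%) were called lower in DG and 236 (16.4%) higher. Of the 21 members tested there, the 5 above were again called higher and miR-669e-5p was called lower (log2 fold change -1.42 ± 0.48, edgeR adjusted p = 0.0129), and DESeq2 gave -0.82 ± 0.56 (adjusted p = 0.218). The 3 counts of a detection floor stand at a median of 1.43 CPM in DG and 0.716 CPM in CA.

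Marker miRNAs of other cell types also differed between the regions, and their part in the members' difference was not tested. The oligodendrocyte list (5 rows, none at 0 throughout) summed to 2016 to 3890 CPM in DG and 6101 to 12534 CPM in CA, with no overlap. Most of that sum was miR-338-3p, while miR-219a-5p had 1 count over all libraries. The choroid plexus and ependyma list (8 rows, none at 0 throughout) summed to 13586 to 21543 CPM in DG and 7925 to 19431 CPM in CA. Within it, miR-204-5p averaged 15694 CPM in DG and 5982 CPM in CA, and the means of miR-211-5p and miR-449a-5p were also higher in DG. The other rows of the list had lower means in DG. miR-34c-5p averaged 1039 CPM in DG and 5364 CPM in CA, and miR-34b-5p 41.9 and 229 CPM. miR-200a-3p averaged 2.74 CPM in DG and 36.6 CPM in CA, miR-200b-3p 6.04 and 97.6 CPM, and miR-429-3p 10.6 and 173 CPM. The erythrocyte list (3 of 5 rows found) summed to 154 to 507 CPM in DG and 254 to 1113 CPM in CA. The vascular list (4 rows, miR-126a-5p at 0 throughout) summed to 13029 to 63186 CPM in DG and 17901 to 33604 CPM in CA. The microglia and leukocyte list (4 of 6 rows found) summed to 2072 to 3583 CPM in DG and 2182 to 2997 CPM in CA, and the hindbrain list (4 rows, miR-196a-5p at 0 throughout) to 157 to 1075 CPM in DG and 146 to 659 CPM in CA. The highest CA value of the neuron, oligodendrocyte, erythrocyte and hindbrain lists was library 3 of 10wEE_CA. Without it, the highest CA sums were 9064 CPM for the oligodendrocyte list, 512 CPM for the erythrocyte list and 458 CPM for the hindbrain list.

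Environmental enrichment moved no member past the threshold, in either region or at either time. The 4 tested members in these fits were miR-467d-5p, miR-669c-5p, miR-467e-5p and miR-467c-5p, and edgeR called 0 of 4 in each comparison. Calls over all miRNAs were 3 of 525 (0.571%) in 2wEE_DG against 2wHC_DG, 2 of 525 (0.381%) in 10wEE_DG against 10wHC_DG, and 0 of 581 (0%) in each CA comparison, where 35 (2wEE_CA) and 30 (10wEE_CA) had an unadjusted p under 0.05. Without library 3 of 10wEE_CA, which shares the CA fit, edgeR called 9 of 580 (1.55%) in 2wEE_CA against 2wHC_CA and 3 of 580 (0.517%) in 10wEE_CA against 10wHC_CA, no member among them. Leaving out single libraries gave 2 to 4 calls in 2wEE_DG against 2wHC_DG and 0 to 2 in 10wEE_DG against 10wHC_DG. DESeq2 and limma voom also called 0 members in each, and 0 of all miRNAs in the CA comparisons, although a fit of only the 2 groups called 6 miRNAs in 2wEE_CA against 2wHC_CA, no member among them. An unadjusted p under 0.05 was found for 1 of these 16 member tests in the main edgeR fits. In 2wEE_CA against 2wHC_CA the main fit and limma voom gave 0 of 4 members at that level. RLE scaling, library totals, a replicate block, a fit of only the 2 groups and one without library 3 of 10wEE_CA each gave 1 of 4.

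The member test with an unadjusted p under 0.05 in the main edgeR fits was miR-467c-5p after 10 weeks in DG. Its lowest, median and highest levels were 1.56, 4.15 and 5.81 CPM in 10wEE_DG, against 3.09, 6.61 and 9.67 CPM in 10wHC_DG. All 8 enriched libraries lay below the home cage mean of 6.59 CPM, and 2 lay below the lowest home cage library. The log2 fold change was -0.65 ± 0.31 (edgeR adjusted p = 0.825), and with limma voom its unadjusted p was not under 0.05. In 2wEE_DG its 5 libraries had 7.61, 2.31, 5.66, 8.61 and 0.895 CPM, against 2.59 to 5.38 CPM (median 4.22) in 2wHC_DG. The enriched libraries there lay on both sides of the home cage range.

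The other DG values were small against their spread. miR-467d-5p in 2wEE_DG had 30.9, 23.1, 25.5, 27.3 and 23.3 CPM, against 21.4, 27.3 and 34.2 CPM (lowest, median and highest) in 2wHC_DG, a log2 fold change of -0.09 ± 0.18. miR-669c-5p in 2wEE_DG had 25.1, 19.1, 24.99, 23.0 and 17.0 CPM, against 17.3 to 21.7 CPM in 2wHC_DG, a log2 fold change of 0.18 ± 0.17. Both pairs of groups overlapped. miR-467e-5p in 2wEE_DG had 12.5, 13.3, 8.96, 10.0 and 1.79 CPM, against 3.75 to 10.9 CPM in 2wHC_DG, with a log2 fold change of 0.34 ± 0.26; its lowest library was number 5, with 2 counts. At 10 weeks the log2 fold changes in DG were 0.00 ± 0.20 for miR-467d-5p, 0.04 ± 0.14 for miR-669c-5p and -0.16 ± 0.22 for miR-467e-5p.

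In CA, miR-467d-5p had 8.83, 12.3 and 14.3 CPM (lowest, median and highest) in 2wEE_CA, against 11.6, 15.3 and 19.4 CPM in 2wHC_CA. All 7 enriched libraries lay below the home cage mean and 3 lay below its lowest library, but the groups overlapped. The log2 fold change was -0.32 ± 0.16 (edgeR adjusted p = 0.847). At 10 weeks miR-669c-5p had 8.53, 13.9 and 35.4 CPM in 10wEE_CA, against 8.56, 11.1 and 12.6 CPM in 10wHC_CA. In 5 of 8 enriched libraries it exceeded every home cage library. The log2 fold change was 0.31 ± 0.17 (edgeR adjusted p = 0.848), and 0.23 ± 0.14 (adjusted p = 0.767) without library 3 of 10wEE_CA. The other CA values ran between -0.28 ± 0.25 for miR-467c-5p at 10 weeks and 0.25 ± 0.21 for miR-467e-5p at 10 weeks.

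**Figure D4:**
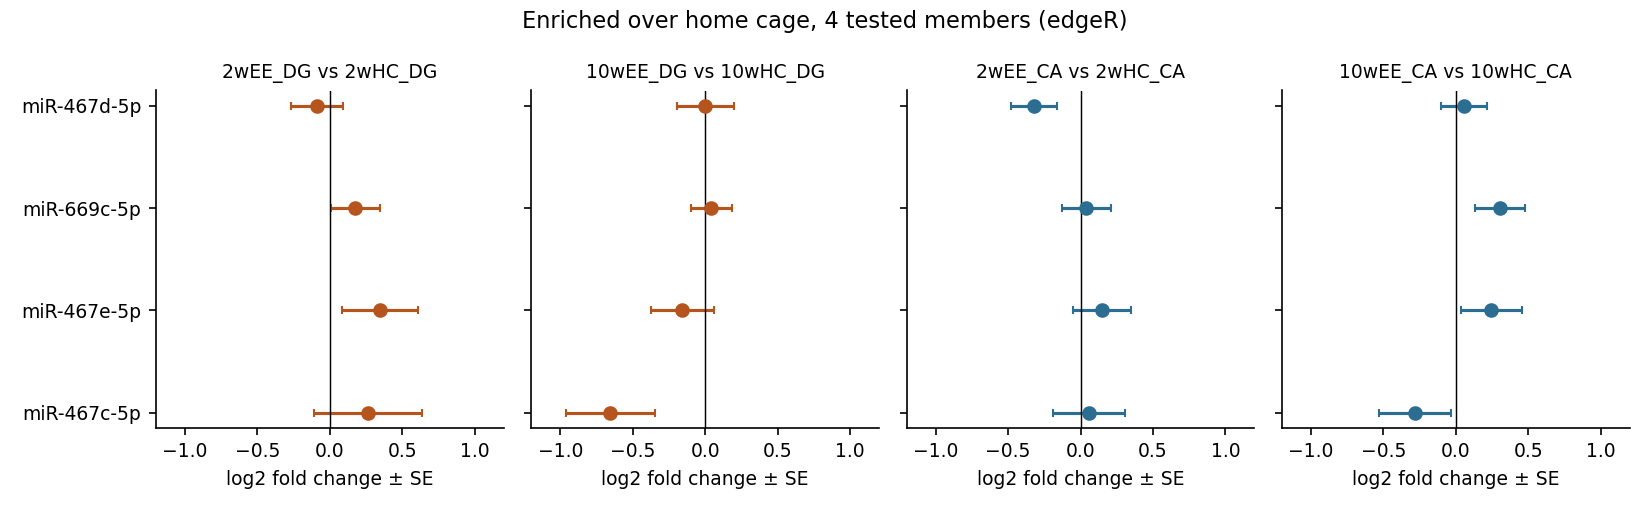
Log2 fold change ± SE of enriched over home cage libraries for the 4 tested members, in DG (brown) and CA (blue) at 2 and 10 weeks. Values lie between -0.65 and 0.34, and none was called.

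The enrichment effect itself was not found to differ between times or regions. For 10 minus 2 weeks, edgeR called 0 of 4 tested members in CA and 0 of 4 in DG. For DG minus CA, it called 0 of 5 at 2 weeks and 0 of 5 at 10 weeks, and none of these tests had an unadjusted p under 0.05. Calls over all miRNAs were 0 (0%) in each of these comparisons with edgeR, DESeq2 and limma voom, where edgeR gave an unadjusted p under 0.05 for 13 to 25 miRNAs.

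Between the home cage groups, time was set against the members in the same way. Mice of both times are listed as 20 weeks old, and what else may set these groups apart was not tested. In DG, 84 of 525 miRNAs (16%) differed between 10wHC_DG and 2wHC_DG, with 40 higher (7.62%) and 44 lower (8.38%), or 45 higher and 23 lower when scaled by library totals. The count rested in part on single libraries: it was 48 without library 4 of 2wHC_DG, 51 without library 5 of 10wHC_DG and 53 without library 1 of 2wHC_DG, and between 56 and 91 without any other library of these groups. A fit of only the 2 groups called 55 of 477, and one with no filter on low counts 51 of 1316. None of the 4 tested members was among the 84. miR-467d-5p had 15.2, 22.8 and 26.8 CPM in 10wHC_DG, against 21.4, 27.3 and 34.2 CPM in 2wHC_DG. All 6 libraries of 10wHC_DG lay below the mean of 2wHC_DG and 2 lay below its lowest library. The log2 fold change was -0.44 ± 0.17 (edgeR adjusted p = 0.0869), and without library 3 of 2wHC_DG it was -0.52 (adjusted p = 0.0416), past the threshold.

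miR-467c-5p had 3.09, 6.61 and 9.67 CPM in 10wHC_DG, against 2.59, 4.22 and 5.38 CPM in 2wHC_DG. In 5 of 6 libraries of 10wHC_DG it exceeded every library of 2wHC_DG, and its log2 fold change was 0.47 ± 0.34 (edgeR adjusted p = 0.383). The same 10wHC_DG libraries (mean 6.59 CPM) enter the comparison with 10wEE_DG above, so the differences are not independent. Means of this member were 4.16 CPM in 2wHC_DG, 5.02 CPM in 2wEE_DG and 3.96 CPM in 10wEE_DG. The log2 fold change of miR-467e-5p was 0.26 ± 0.25 and that of miR-669c-5p 0.04 ± 0.16, neither past the threshold.

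miR-669h-5p, which did not pass the filter on low counts, had 0, 1.44 and 3.34 CPM in 10wHC_DG (0 to 7 counts), against 0, 0.535 and 0.789 CPM in 2wHC_DG (0 to 2 counts). In 5 of 6 libraries of 10wHC_DG it exceeded every library of 2wHC_DG. With no filter on low counts its log2 fold change was 1.69 ± 0.68 (edgeR adjusted p = 0.181). How many of all miRNAs show such a pattern was not counted. Other named members outside the filter went both ways. Means of miR-466q, miR-669o-5p and miR-669l-5p were lower in 10wHC_DG (1.82, 1.63 and 0.805 CPM) than in 2wHC_DG (2.55, 2.23 and 1.19 CPM). miR-466n-3p and miR-669e-5p averaged 0.283 and 0.151 CPM in 10wHC_DG and 0 CPM in 2wHC_DG. In CA, edgeR called 0 of 581 miRNAs (0%) between 10wHC_CA and 2wHC_CA, with 35 at an unadjusted p under 0.05. limma voom also called 0 and DESeq2 3. Without library 3 of 10wEE_CA, edgeR called 12 of 580 (2.07%), without library 1 of 2wHC_CA 2 of 581, and in a fit of only the 2 groups 8 of 555. No member was among any of these. miR-467d-5p (log2 fold change -0.27 ± 0.16), miR-467e-5p (-0.34 ± 0.22) and miR-669c-5p (-0.26 ± 0.18) had values below 0 and miR-467c-5p one above 0 (0.25 ± 0.25), none past the threshold.

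The spread within groups was set against counting error for the 10 members with most counts. As a ratio of the observed variation to that of Poisson counting (chi-square per degree of freedom), miR-467d-5p had 1.99, miR-669c-5p 1.83, miR-467e-5p 1.61, miR-467c-5p 1.34, miR-466q 1.37, miR-669o-5p 0.829, miR-669h-5p 1.10 and miR-669l-5p 1.43, with 44 degrees of freedom each. miR-466n-3p had 1.5 with 35 degrees of freedom and miR-669e-5p 0.893 with 39. The ratio was thus above 1 in 8 of the 10 and highest for the 2 members with most counts. Whether any ratio differed from 1 was not tested. At a given relative spread beyond counting, the ratio rises with the count. It is rough for miR-466n-3p and miR-669e-5p, whose median was 0 counts. At its median of 49 counts, miR-467d-5p has a counting error of 14.3% in a library. At its median of 4.5 counts, that of miR-669o-5p is 47.1%.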

How the data were processed

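Small RNA libraries were prepared with Illumina TruSeq protocols, per the labels' protocols. Per the submitters' processing notes, CASAVA 1.8.2, cutadapt, STAR and HTSeq were used with mm10; the labels record neither the miRNA annotation nor the settings. The deposited values are raw counts per mature miRNA in each library, and their 5 closing rows (unassigned reads) were left out of totals and tests. CPM here is a count over the sum of all 1900 miRNA rows. Tests used edgeR 4.0.16 (R 4.3.3; TMM scaling, filterByExpr by group, quasi-likelihood F test, Benjamini-Hochberg over all miRNAs tested, threshold 0.05), with 1 fit of the CA libraries, 1 of the DG libraries and 1 of all 52 for comparisons across regions. The scripts were tested on simulated data. Alternatives used DESeq2 1.42.0, limma 3.58.1, other scalings and filters, a replicate block and leaving out each library. Region differences within each housing and time were added after seeing the data.

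Members and lists were chosen with earlier results of these data known. Members named are those detected, made up to the 10 with the highest mean CPM; others named were chosen after their values were seen. Hairpins were matched by name in GENCODE M21. No 2 libraries of a group held identical counts.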

Additional observations from a re-analysis of the deposited data

Results flagged for a closer look

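A sample far from the others of its group was found in 7 of 64 sets of values (the detected members and the sum of all members in each of 8 groups). The rule nominally flags about 1 in 20, or 3.2 of 64, for independent normal values of equal spread. Low counts, unequal depth and the overlap of the sum with its members depart from that, so 3.2 is not an exact chance expectation. Library 3 of 10wEE_CA, the shallowest of the series, gave 5 of the 7. There miR-669c-5p stood at 35.4 CPM (17 counts), against 8.53 to 15.2 CPM in the other libraries of the group. miR-467e-5p stood at 22.9 CPM (11 counts), against 4.73 to 7.46 CPM. miR-467c-5p stood at 6.24 CPM (3 counts), against 2.13 to 3.95 CPM. miR-466q stood at 4.16 CPM (2 counts), against 0.799 to 1.83 CPM. The sum of all members was 89.4 CPM (43 counts), against 33.8 to 43.8 CPM. miR-467d-5p had 6.24 CPM (3 counts) in this library, the lowest of its group. In library 5 of 2wHC_CA, miR-466q stood at 4.57 CPM (17 counts), against 0.954 to 1.83 CPM in the others. In library 1 of 2wHC_DG, the sum of all members was 76.7 CPM (92 counts), against 61.1 to 66.1 CPM in the others.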

How the results depend on the processing

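All 5 members remained called higher in DG than in CA under every scaling, tool and left-out library tried, except that a filter at a mean of 10 CPM left 2 members to test, both called, and that miR-466q did not pass the filter in the home cage only and enriched only fits. The number of detected members was 4 at 10 or more counts and 11 at 3 or more counts in at least 1 library. It was 2 at 3 or more counts in all libraries. At the smallest depth of 480792 counts, 3 would be expected, a calculated value for which no library was drawn down. Without miR-467d-5p the summed level was 40.8 CPM in DG and 29.2 CPM in CA. Leaving out each library gave 0 to 1 called members for 10wHC_DG against 2wHC_DG; the 1 was miR-467d-5p without library 3 of 2wHC_DG. Of 790 alternative log2 fold changes of 29 followed, 760 kept direction and call, 1 was called only in an alternative, 0 were lost and 29 had the other sign, none of them called; the cause was not tested. For miR-467d-5p in 10wEE_DG against 10wHC_DG these were -0.0161 (DESeq2), -0.0255 (limma voom), -0.0167 (RLE), -0.033 (library totals), -0.000466 (no filter), -0.017 (filter at 10 CPM), -0.00506 (only the 2 groups) and -0.0816 to 0.0643 over left-out libraries. Library totals gave -0.00773 for miR-669c-5p in 2wEE_CA against 2wHC_CA. Over left-out libraries the ranges were -0.121 to 0.201 for miR-467c-5p and -0.0533 to 0.0946 for miR-669c-5p in 2wEE_CA against 2wHC_CA, -0.0224 to 0.141 for miR-467d-5p in 10wEE_CA against 10wHC_CA, -0.0821 to 0.12 for miR-669c-5p in 10wEE_DG against 10wHC_DG, and -0.0388 to 0.153 for miR-669c-5p in 10wHC_DG against 2wHC_DG. The labels do not say whether same-numbered libraries share an animal, and in no comparison did every such pair correlate above 0.1, so the numbers were not used to pair libraries; the closest was 2wHC_DG against 2wHC_CA, with 5 of 6 pairs over 0.1 (median 0.225) and 4 of 6 libraries correlating best with their own number. With the replicate number as a block, 5 members were called between regions and 0 in every other comparison; the block gave log2 fold changes of -0.0446 for miR-467d-5p in 10wEE_CA against 10wHC_CA, and of -2.13e-06 for miR-467d-5p and -0.0571 for miR-669c-5p in 10wEE_DG against 10wHC_DG. Depth limits members below a few CPM, and a member with little RNA cannot be told apart from one whose reads aligned to several places.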
